A study of Mus musculus with 4 samples.

Results

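Trichostatin A (TSA) was compared with control in fibro/adipogenic progenitors (FAPs) of old mdx mice by the positions of accessible chromatin, 1 library a side. All regions listed for these libraries were used, 87416 from old TSA and 97139 from old control, or 184555 of the 308012 regions in the 4 libraries of the series. Each region was classed by whether it overlapped a region of the other library by at least 1 bp: shared, TSA only or control only. The mice carried the mdx mutation on the C57BL/6 background and are labelled old, with no age in months. Per the labels' protocols, they received TSA at 0.5 mg per kg per day by intraperitoneal injection for 15 days. The controls received saline, although their treatment field reads none. Young control and young TSA libraries, from young mdx mice under the same treatments, were used only for comparison. All 4 libraries came from hind limb FAPs sorted for Sca-1 after removal of Ter119+, CD45+, CD31+ and α7integrin+ cells. No wild-type group was analysed here, so every library carries the dystrophin defect. The sources used here do not say whether animals were pooled.

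FAPs are mesenchymal cells of the muscle interstitium. In healthy muscle they support regeneration, and in dystrophic muscle they are a source of scar and fat. TSA inhibits histone deacetylases, the enzymes that remove acetyl groups from histone tails, and acetylated chromatin is in general more open. Deacetylase inhibitors are known for aiding regeneration in young mdx muscle more than in old, which is the setting of this comparison. In NA-seq, a restriction enzyme is let into intact nuclei and cuts where the DNA is exposed, so a called region marks chromatin that the enzyme reached. Regions are given by position alone. With 1 library per group there is no error between animals and no p-value. Bracketed ranges are exact binomial (Clopper-Pearson) intervals at 95%. These cover counting error alone and take each region as independent of its neighbours. Read depth is unknown. Positions are of the mouse build mm9, and the genes at them were not analysed here, so the labelled cell type was not checked against marker genes.

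In old mdx FAPs, the TSA library held fewer called regions than the control library. Each library had a large set of its own, and the control set was the larger. Of the old TSA regions, 39469 were TSA only, which is 45.2% of that list (44.8 to 45.5%). Of the old control regions, 49236 were control only, or 50.7% (50.4 to 51.0%). The other 47947 TSA and 47903 control regions overlapped one another and merged into 47155 shared regions. The union therefore held 135860 regions, 34.7% of them shared, 29.1% TSA only and 36.2% control only. TSA-only regions made up 44.5% of all unshared regions (44.2 to 44.8%). Control-only regions outnumbered TSA-only regions by 9767, and the whole control list was longer by 9723 regions. With nearly as many shared regions on either side, the first difference follows from the second by the class rule. A treatment effect on these numbers and a difference in depth between the libraries cannot be told apart.

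The control side was also the larger by sequence covered. TSA-only regions covered 59.3 Mb, or 39.5% of the sequence of their list, and control-only regions covered 75.4 Mb, or 44.9%. The shared class covered 90.6 Mb on the TSA side and 92.6 Mb on the control side. Both libraries had the bases of 77.7 Mb in common.

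Unshared regions were narrower than shared ones in both libraries. The median width was 1500 bp for TSA-only and for control-only regions, and 1900 bp for shared regions on either side. The middle of the TSA-only class ran from 1100 to 1900 bp (quartiles), and that of control-only regions had the same quartiles. Widths had 2 modes, 1 at the shortest width of 1000 bp and a sharp 1 at 1900 bp. The 1000 bp mode held 17.5% of TSA-only and 16.7% of control-only regions, against 6.62% and 5.69% of the shared regions of TSA and control. The 1900 bp mode held 23.4% of TSA-only and 26.5% of control-only regions, against 37.1% and 39.2% of shared ones.

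The chance of having a partner in the other library rose with width throughout. Among regions of 1000 to 1200 bp, 66.4% of the TSA regions (65.7 to 67.0%) and 72.9% of the control regions (72.3 to 73.4%) had none. At exactly 1900 bp these shares were 34.2% and 41.0%. Among regions of 3000 bp or more they were 11.3% (10.3 to 12.3%) and 15.2% (14.2 to 16.3%). A wider region has more room to be met by another, so part of this gradient is set by the overlap rule itself.

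Within the unshared regions, the TSA-only share was lower from 1900 bp on than below, with no steady fall below that width. It was 45.4% (44.9 to 46.0%) at 1000 to 1200 bp, 46.9% (46.1 to 47.7%) at 1300 to 1500 bp and 45.8% (45.0 to 46.7%) at 1600 to 1800 bp. From there it was 41.4% (40.8 to 42.1%) at 1900 bp, 41.1% (39.6 to 42.7%) at 2000 to 2900 bp and 38.9% (36.0 to 41.9%) at 3000 bp or more. Regions of 1900 bp or wider formed 28.5% of the TSA-only class (28.0 to 28.9%) and 32.4% of the control-only class (32.0 to 32.8%). In the whole lists, the number of TSA regions per control region was 0.915 at 1000 to 1200 bp, 0.978 at 1300 to 1500 bp and 0.962 at 1600 to 1800 bp. It was 0.849 at 1900 bp, 0.868 at 2000 to 2900 bp and 0.860 at 3000 bp or more.

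**Figure D1:**
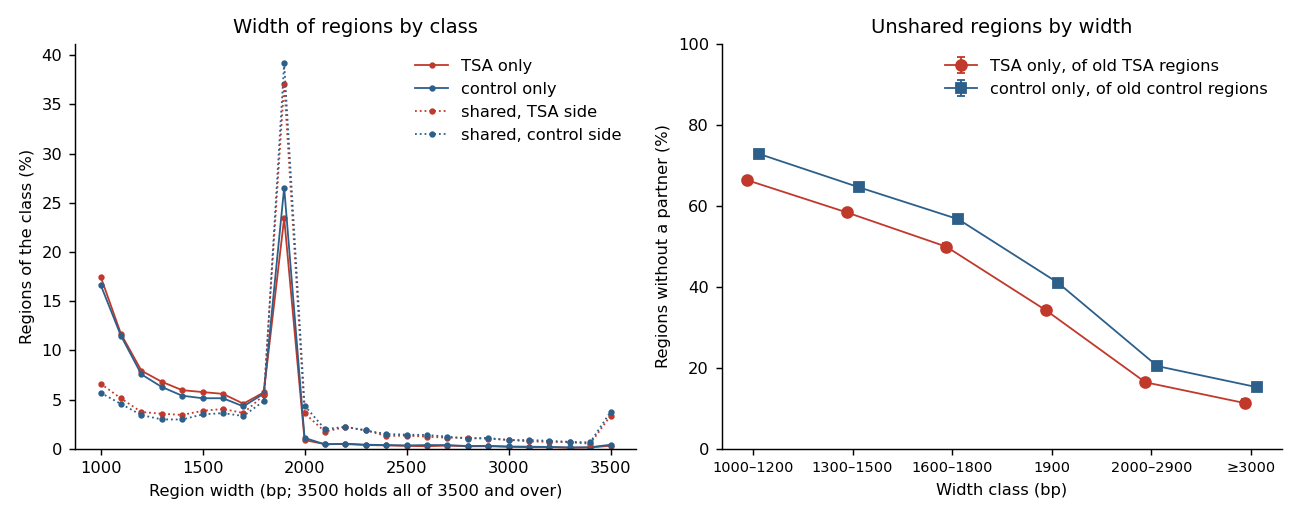
Left: percent of each class at each width in bp, with solid lines for unshared and dotted lines for shared regions. Right: percent of the regions of a library with no partner in the other, by width class, with 95% exact binomial intervals. Shared regions peak at 1900 bp, and the share without a partner falls from 66.4% to 11.3% in old TSA and from 72.9% to 15.2% in old control.

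Where both libraries called a region, the overlap mostly spanned the narrower of the 2 calls. Of the 48652 overlapping pairs, 45858 (94.3%) joined 1 TSA region with 1 control region. In 24.4% of these (24.0 to 24.8%) both ends were identical, and in 64.9% at least 1 end was. The narrower region lay wholly inside the wider in 81.5% of the pairs, and in only 2.44% did the overlap span less than 50% of the narrower region. The shared class therefore seldom rests on touching edges, although the 2 calls often differed in width. Under a reciprocal overlap of 50%, TSA-only regions numbered 44324 in place of 39469. Control-only regions then numbered 54047 in place of 49236.

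Within these pairs the control region was wider in 17791 and the TSA region in 14984, while 13083 were of equal width. The TSA region was thus the wider in 45.7% of the pairs that differed (45.2 to 46.3%). The mean widths were 1870 bp for TSA and 1913 bp for control. The mean difference, TSA minus control, was -42.8 bp with an SD of 646 bp over pairs, and the median difference was 0 bp.

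Most unshared regions lay within 10 kb of a region of the other library. The median distance was 6400 bp from a TSA-only region to the nearest control region and 8000 bp from a control-only region to the nearest TSA region. Within 1 kb lay 12.2% of TSA-only and 10.3% of control-only regions, and within 10 kb lay 63.9% (63.5 to 64.4%) and 56.6% (56.2 to 57.0%). Farther than 100 kb from any region of the other library were 235 TSA-only regions (0.595%) and 823 control-only regions (1.67%). The longer control list puts more targets near a TSA-only region, so these distances favour the TSA-only class by construction. The median gap between successive regions was 12200 bp in the old control list and 12500 bp in the old TSA list. Random positions were not compared, so proximity beyond the density of the lists was not tested.

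Distances to the shared regions, which are the same targets for both classes, gave the same order. The median was 13600 bp for TSA-only and 15800 bp for control-only regions. Within 10 kb of a shared region lay 42.0% (41.5 to 42.5%) of TSA-only and 38.3% (37.8 to 38.7%) of control-only regions. The TSA-only share of unshared regions was 47.5% (46.2 to 48.8%) within 1 kb of a shared region. It was 44.7% (44.0 to 45.4%) at 10 to 25 kb, 41.8% (40.8 to 42.8%) at 50 to 100 kb and 38.1% (35.1 to 41.2%) from 250 kb on. Unshared regions far from shared chromatin were thus more often those of the control. They were also narrower, with a median of 1400 bp in either class beyond 100 kb. Within 1 kb the medians were 1500 bp for TSA-only and 1600 bp for control-only regions.

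**Figure D2:**
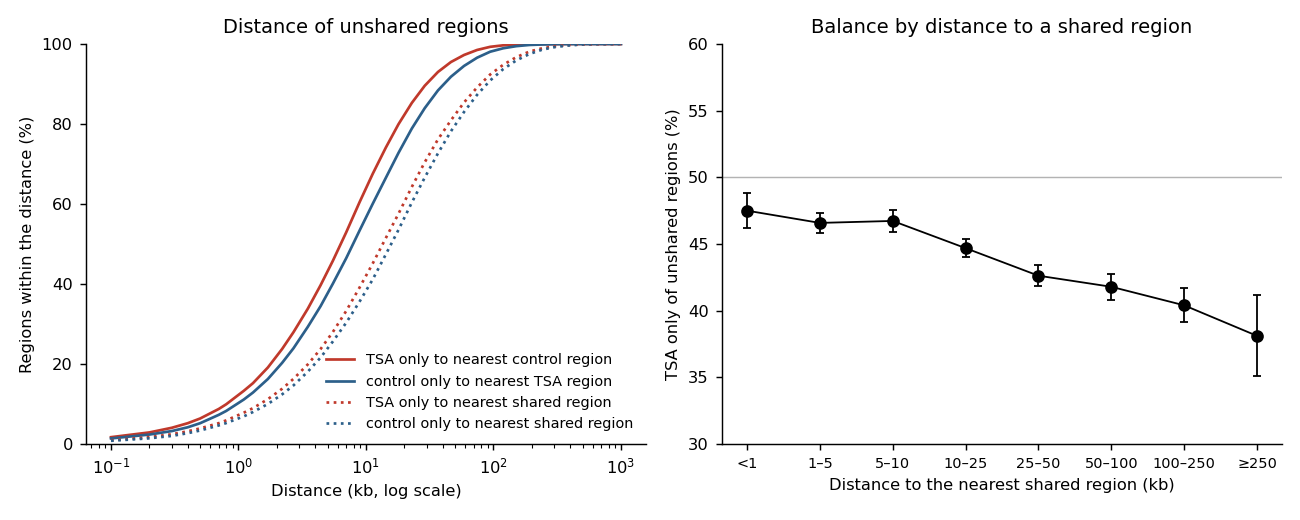
Left: cumulative percent of unshared regions within a distance in kb (log scale) of the nearest region of the other library (solid) or the nearest shared region (dotted). Right: percent of unshared regions that are TSA only, by distance in kb to the nearest shared region, with 95% exact binomial intervals, on an axis from 30 to 60%. The share falls from 47.5% within 1 kb to 38.1% from 250 kb on.

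The TSA-only regions farthest from a control region were chromosome 7 from 9053201 to 9054200, 1527.3 kb away, then chromosome 5 from 95320801 to 95322500, 498.7 kb away, and chromosome 14 from 43656601 to 43658700, 339.3 kb away. None of these 3 was called in a young library or stood in a differential list of the old mice. Over all TSA-only regions, 37.8% were called in at least 1 young library and 6.46% were in the gained list. Those on chromosomes 7 and 5 were the only regions of either library in their 1 Mb windows. The window of the one on chromosome 14 held 1 region of each class. The control-only regions farthest from a TSA region were chromosome 14 from 7111501 to 7113100, 869.8 kb away, chromosome X from 24776201 to 24778100, 549.2 kb away, and chromosome 4 from 60883301 to 60884700, 469.2 kb away. The region on chromosome X was in the authors' lost list, and the one on chromosome 4 was called in young TSA. Over all control-only regions, 6.28% were in the lost list and 25.3% were called in young TSA. The control-only region on chromosome 14 was alone in its window. The window of the one on chromosome 4 held 2 control-only regions, 1 TSA-only region and no shared region.

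All 5 of the widest TSA-only regions were also called in young TSA. The widest, of 5700 bp, was chr12:113732301-113738000. It was followed by chr2:163624801-163630400, chr8:121200301-121205800, chr15:83497601-83503100 and chr1:137756701-137761700, the last with 5000 bp. Those on chromosomes 8 and 15 were in the gained list of the old mice, and those on chromosomes 8 and 1 in the list of regions gained at the young age. Only the region on chromosome 1 was called in the young control. All 5 lay within 10.9 kb of an old control region, the nearest at 400 bp. Of all TSA-only regions of 3000 bp or more, 64.4% were called in young TSA and 32.5% in the young control. The gained list of the old mice held 20.9% of them.

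Of the 5 widest control-only regions, 4 were called in young TSA and none in the young control. These 4 were chr16:97068301-97073600, chr4:8979101-8984300, chr10:80247101-80252300 and chr12:103831301-103836400. The other, chr16:10327301-10332300, was called in no other library of the series. Of all control-only regions of 3000 bp or more, 51.0% were called in young TSA and 19.5% in the young control. The lost list of the old mice held 17.5% of them. Widths of the 5 named regions ran from 5000 to 5300 bp. Those on chromosomes 10 and 12 were in the lost list of the old mice, and the one on chromosome 10 was also among the regions gained with TSA in young mice.

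TSA-only and control-only regions were interleaved along the chromosomes. After a TSA-only region, the next unshared region was TSA only in 44.8% of cases (44.3 to 45.2%). After a control-only region this was 44.3% (43.9 to 44.7%), and over all unshared regions the share is 44.5%. These intervals overlapped, so among unshared regions alone no grouping by class was resolved between neighbours. With shared regions counted too, shared regions followed shared regions in 37.0% of cases (36.5 to 37.4%), against 34.7% of the union. Control-only regions followed control-only regions in 37.7% (37.3 to 38.1%), against 36.2% of the union. For TSA-only regions after TSA-only regions this was 28.8% (28.3 to 29.2%), against 29.1%. Control-only regions were followed by a shared region in 32.7% (32.3 to 33.1%) and TSA-only regions in 34.5% (34.1 to 35.0%).

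Runs of successive regions of 1 class were short. Of 28117 TSA-only runs, 71.2% were single regions and the longest held 8. Of 30683 control-only runs, 62.8% were single and the longest held 11, with 672 runs of 5 or more against 201 for TSA only. The longest TSA-only runs, with 8 regions each, were chr7:56955701-57034000, chr8:22960801-23109000 and chr11:19366501-19488500. The longest control-only runs held 11 regions in chr9:114490301-114587500, 11 in chr12:15946201-16102000 and 10 in chr8:60707601-61046800. Within 50 kb of another region of their class lay 82.4% (82.0 to 82.7%) of TSA-only and 87.4% (87.1 to 87.7%) of control-only regions. The control-only class is the larger, which shortens its distances and lengthens its runs without any change in pattern.

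On every autosome control-only regions outnumbered TSA-only regions. The TSA-only share ran from 42.8% on chromosome 3 (41.4 to 44.2%) to 47.9% on chromosome 11 (46.5 to 49.4%), with 44.6% over all autosomes. The interval of chromosome 11 did not overlap the 44.4% (44.1 to 44.8%) of the other autosomes. It held 2271 TSA-only regions, 19.1 per Mb of the called span and the highest density of any autosome, and 2467 control-only regions. Chromosome 7 came next, with a share of 46.2% (44.9 to 47.5%) and the highest shared density, 23.6 per Mb. Chromosomes 1 and 6 were near the low end, at 43.2% and 43.1%. The intervals of most autosomes overlapped one another, so their order beyond these extremes is not resolved.

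The X chromosome stood apart from the autosomes in all classes. It held 872 TSA-only, 1352 control-only and 636 shared regions. The TSA-only share of its unshared regions was 39.2% (37.2 to 41.3%), below the interval of every autosome. Only 22.2% of its union regions were shared (20.7 to 23.8%), against 32.1% on chromosome 18, the lowest autosome, and 38.3% on chromosome 7, the highest. Its density relative to the autosome mean was 0.334 for TSA-only, 0.419 for control-only and 0.204 for shared regions. The labels do not state sex.

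**Figure D3:**
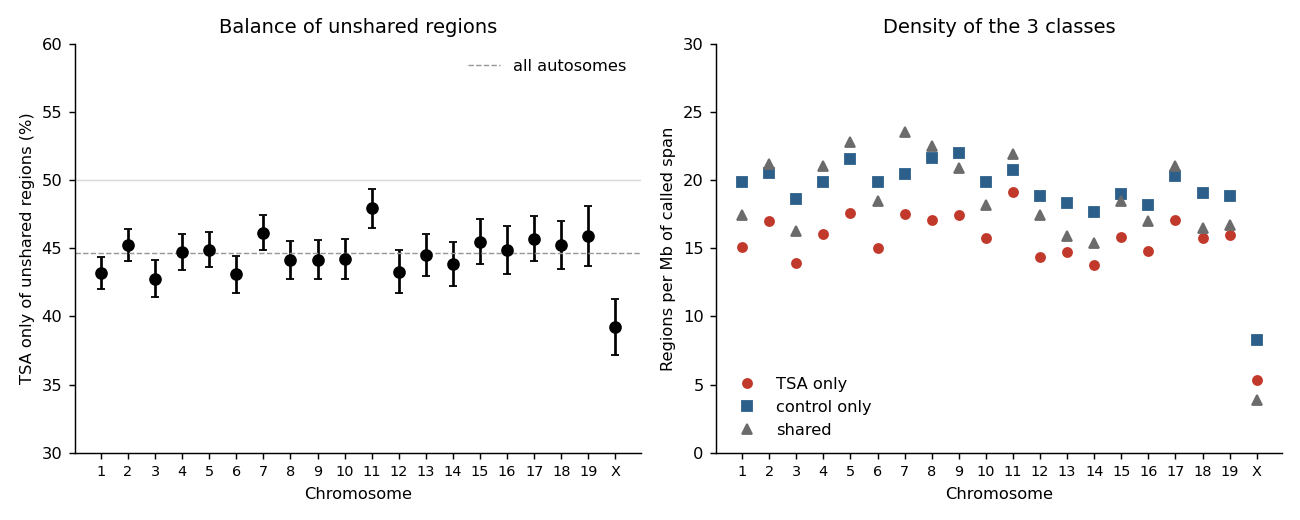
Left: percent of unshared regions that are TSA only on each chromosome, with 95% exact binomial intervals, on an axis from 30 to 60%; the dashed line marks 44.6% over all autosomes. Right: regions of the 3 classes per Mb of the called span, without chromosomes Y and M. Of the chromosomes plotted, X lies lowest for each class, at 5.34, 8.28 and 3.90 per Mb for TSA only, control only and shared.

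In windows of 1 Mb the 3 classes rose and fell together. A window held a median of 14 TSA-only, 19 control-only and 14 shared regions over 2571 windows of the autosomes and X. TSA-only and control-only counts had a Pearson correlation of 0.76 across windows. TSA-only counts correlated with shared counts at 0.81, and control-only counts with shared counts at 0.76. All counts share the sequence of the window, its mappability and its enzyme sites, so these are descriptions. Few windows lacked a class: 17 held no TSA-only, 17 no control-only and 23 no shared region.

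Among the 2345 windows with 20 or more regions, control-only regions outnumbered TSA-only regions in 1724 and the reverse held in 506, with 115 ties. The TSA-only share had a median of 44.0%, a lower quartile of 37.5%, and an SD of 9.43 points over a median of 35 unshared regions. The share of 1 window and that of the next had a Pearson correlation of 0.11 over 2220 pairs of neighbours. With so few unshared regions a window, counting error spreads the shares and lowers such a correlation. The value therefore does not show that neighbouring windows are unrelated. The windows at the ends of the range rest on few regions. The highest share was 77.8% (52.4 to 93.6%) on chromosome 11 between 86 and 87 Mb, with 14 TSA-only and 4 control-only regions. It was followed by chromosome 5 between 43 and 44 Mb and chromosome 10 between 22 and 23 Mb, each with 15 against 6. The lowest was 7.69% (0.195 to 36.0%) on chromosome 15 between 47 and 48 Mb, with 1 against 12. Next came chromosome 16 between 65 and 66 Mb, with 2 against 18, and chromosome 4 between 27 and 28 Mb, with 2 against 16.

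The windows richest in TSA-only regions were also rich in the other classes. Chromosome 8 between 122 and 123 Mb held 54 TSA-only, 34 control-only and 71 shared regions. Chromosome 5 held 47, 29 and 64 between 36 and 37 Mb, and 46, 43 and 67 between 125 and 126 Mb. The windows with most control-only regions were as dense. Chromosome 7 between 25 and 26 Mb held 48 control-only, 30 TSA-only and 71 shared regions. On chromosome 4 the counts were 47, 39 and 57 between 140 and 141 Mb, and 46, 38 and 82 between 153 and 154 Mb.

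The balance between the unshared classes followed the density of shared regions. In windows with at most 4 shared regions, 39.9% of the unshared regions were TSA only (38.5 to 41.3%, 317 windows). The share was 43.4% (42.8 to 44.0%) at 10 to 19 shared regions and 48.0% (47.1 to 48.9%) at 40 to 59. In the 50 windows with 60 or more it was 50.3% (48.6 to 52.0%), with 1667 TSA-only and 1648 control-only regions. Control-only regions thus outnumbered TSA-only regions in every class of windows below 60 shared regions, and the numbers were nearly equal in the densest windows. The gradient was also present among regions of 1900 bp or wider, from 34.1% (31.5 to 36.8%) to 49.3% (46.4 to 52.2%). On the autosomes alone it ran from 40.5% to 50.3%.

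A count from outside the old libraries gave the same gradient. With windows ordered by their number of young control regions, the TSA-only share rose from 39.8% (38.7 to 40.9%) at 4 or fewer to 48.5% (47.4 to 49.5%) at 40 to 59. At 60 or more it was 52.1% (48.3 to 55.9%) over 10 windows. Within chromosomes, windows with 20 or more shared regions had a higher TSA-only share than windows with fewer than 10 on 18 of 19 autosomes. The difference had a median of 6.31 points and was largest on chromosome 8, at 9.98 points. On chromosome 19 it was -2.20 points, at 46.4% (41.5 to 51.4%) in sparse and 44.2% (40.9 to 47.6%) in dense windows. These intervals overlapped, as did those of chromosomes 3, 11, 17 and 18, which are among the 18. At equal density, the intervals of chromosome X and the autosomes overlapped. In windows with at most 4 shared regions, which are 111 of the windows of X, its share was 38.3% (35.6 to 40.96%), against 40.5% (38.9 to 42.1%) on the autosomes. In windows with 5 to 9 shared regions its share was 39.1% (35.3 to 42.9%), against 40.4% (39.5 to 41.3%) on the autosomes. At 10 to 19 it was 43.9% (38.03 to 49.96%) against 43.4% (42.7 to 44.0%), over 10 windows of X. No window of X had 20 or more shared regions.

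**Figure D4:**
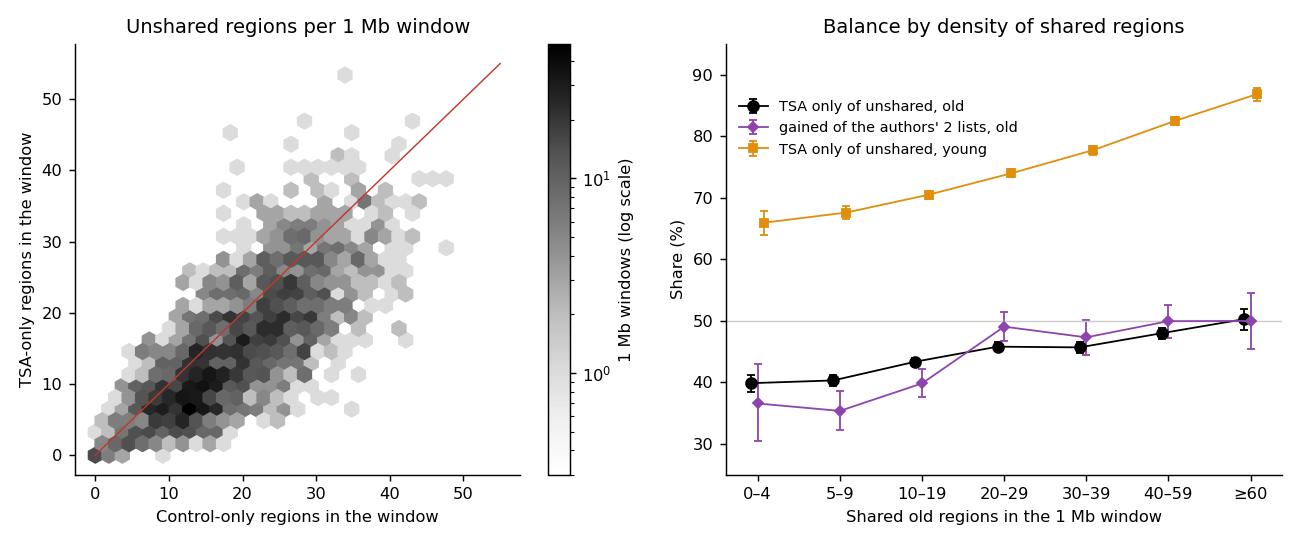
Left: 1 Mb windows by their number of control-only and TSA-only regions, shaded by the number of windows on a log scale, with the line of equal counts in red. Right: by the number of shared old regions in the window, percent TSA only of the unshared regions in old and in young mice and percent gained among the regions of the authors' gained and lost lists of the old mice, with 95% exact binomial intervals, on an axis from 25 to 95%. The old share rises from 39.9% to 50.3%.

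The young libraries, which share no sample with the old ones, showed the same direction at a higher level. Their TSA-only share of unshared regions, in the same windows, rose from 66.0% (64.0 to 67.9%) to 86.9% (85.8 to 87.9%). Over all windows it was 74.9% (74.6 to 75.2%) in young and 44.5% in old mice. The young TSA list held 80122 regions and the young control list 43335. As in the old mice, a treatment effect on these numbers and a difference in depth cannot be told apart. Whether the ages differ could not be tested with 1 library per group.

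The authors' differential lists of the old mice, 3499 gained and 4296 lost regions, fell mainly on unshared regions. Of the gained regions, 72.9% (71.4 to 74.4%) overlapped a TSA-only region and 27.0% a shared one. Of the lost regions, 72.0% (70.6 to 73.3%) overlapped a control-only region and 28.0% a shared one. Over the whole lists, 45.2% of old TSA regions were TSA only and 50.7% of old control regions were control only. From the other side, few unshared regions were listed. In the gained list were 2548 TSA-only regions, or 6.46% (6.22 to 6.70%), where the share over all old TSA regions was 4.00%. In the lost list were 3092 control-only regions, or 6.28% (6.07 to 6.50%), where the share over all old control regions was 4.42%. Of the shared TSA regions 1.97% were in the gained list and 2.21% in the lost list, and 34 regions were in both. The lists come from the same libraries as the classes, so this overlap is a description and no separate evidence.

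The listed share of unshared regions rose with width up to 2000 to 2900 bp. Of the TSA-only regions, 2.37% (2.13 to 2.63%) were listed as gained at 1000 to 1200 bp, 11.3% (10.7 to 12.0%) at 1900 bp and 23.0% (21.0 to 25.2%) at 2000 to 2900 bp. For control-only regions in the lost list the shares were 1.54%, 12.2% and 22.0%. At 3000 bp or more they were 20.9% (17.1 to 25.1%) for TSA only and 17.5% (14.7 to 20.7%) for control only. A wider region has more room to overlap a listed one, so part of the rise is set by the overlap rule. By distance, TSA-only regions within 1 kb of a control region were listed in 7.22% of cases (6.47 to 8.03%) and those at 50 kb or more in 4.53% (3.55 to 5.69%). For control-only regions these shares were 6.43% (5.74 to 7.18%) and 6.00% (5.24 to 6.83%), with overlapping intervals.

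The gained share of the listed regions was also higher in denser windows. The lists come from the same libraries as the classes, so this is no separate evidence for the gradient. Gained regions were 36.6% (30.6 to 42.9%) of the listed regions in windows with at most 4 shared regions and 35.4% (32.2 to 38.6%) at 5 to 9. The share was 39.8% (37.6 to 42.1%) at 10 to 19 and 49.1% (46.7 to 51.4%) at 20 to 29. It was 47.3% (44.5 to 50.2%) at 30 to 39 and 49.96% (47.3 to 52.7%) at 40 to 59. The densest windows held 240 gained and 240 lost regions. From 20 shared regions on the intervals overlapped, so no further rise was resolved.

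Calls in the young libraries, which the class rule did not use, ranked the classes. Shared regions of old TSA were called in young TSA in 68.7% of cases (68.3 to 69.1%), TSA-only regions in 31.7% (31.3 to 32.2%) and control-only regions in 25.3% (24.9 to 25.7%). In the young control these shares were 35.0%, 14.9% (14.5 to 15.2%) and 11.1% (10.8 to 11.4%). TSA-only regions were thus called more often than control-only regions in the treated and also in the untreated young library. At least 1 young library called 37.8% (37.4 to 38.3%) of TSA-only and 30.5% (30.1 to 30.9%) of control-only regions, against 73.4% of shared TSA regions.

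The order held at equal width. Among regions of exactly 1900 bp, 43.8% of TSA-only (42.8 to 44.8%) and 33.4% of control-only regions (32.6 to 34.2%) overlapped a young TSA region, where shared TSA regions reached 74.3%. In the young control the shares were 20.5% (19.7 to 21.3%) and 13.8% (13.2 to 14.4%), against 36.3%. Among regions of 3000 bp or more, 64.4% (59.6 to 68.9%) of TSA-only and 51.0% (47.1 to 54.9%) of control-only regions were called in young TSA.

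The order also held in every class of windows by shared density. Calls in young TSA ran from 16.2% (14.6 to 18.0%) of TSA-only and 13.0% (11.8 to 14.3%) of control-only regions at no more than 4 shared regions to 44.1% (41.7 to 46.5%) and 37.7% (35.4 to 40.1%) at 60 or more. In the young control they ran from 7.30% and 4.92% to 17.6% and 12.4%.

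**Figure D5:**
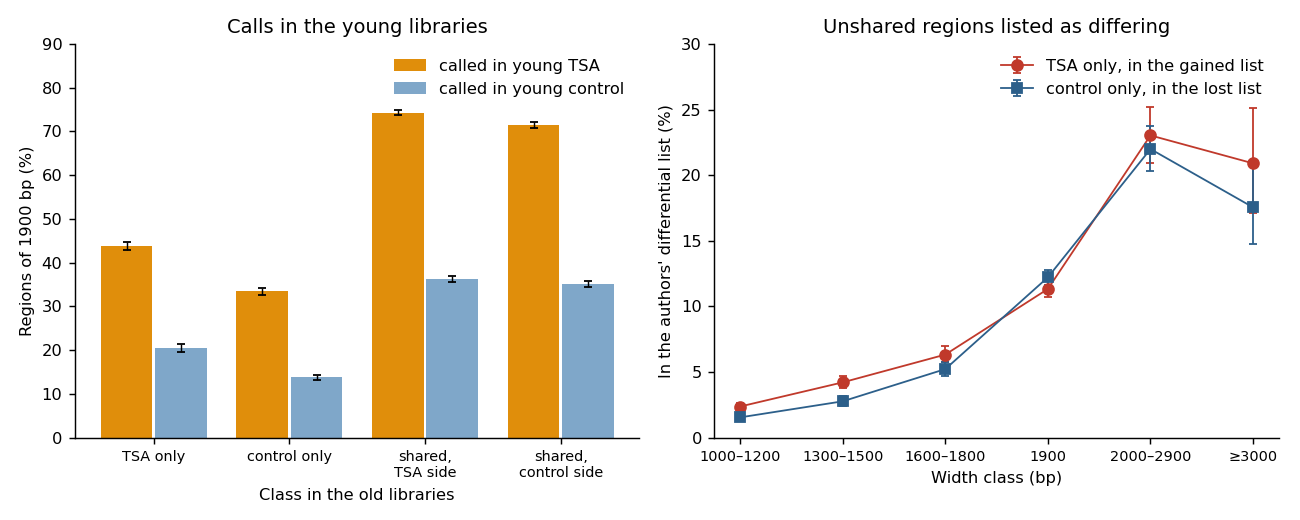
Left: percent of the regions of exactly 1900 bp in each old class that overlapped a region called in young TSA or young control. Right: percent of TSA-only regions in the authors' gained list and of control-only regions in their lost list, by width class in bp. Bars of error are 95% exact binomial intervals. TSA-only regions lie above control-only regions in both young libraries, and the listed share rises with width up to 2000 to 2900 bp.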

How the data were processed

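Accessible regions were measured by NA-seq in 4 libraries, of which the old control and old TSA libraries are compared here. Per the labels' protocols, NlaIII or HpaII cut the chromatin of intact nuclei, and Sau3AI the DNA afterwards. The sources used here do not name the first enzyme of each library. Bowtie 0.12.7 and the build mm9 are named, per the submitters' processing notes. The sources used here name neither the region caller and its threshold nor the test behind the differential lists. Lists were deposited with 3 columns, chromosome, start and end, and no count or score, so depth is unknown. All positions are multiples of 100 bp and no list overlaps itself. Deposited starts count from 0 and printed starts from 1. The gene table at hand is of GRCm38 and was not joined to these positions.

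Overlaps and distances were computed in Python 3.11.15 (pandas 2.3.3, numpy 2.4.6), intervals with scipy 1.17.1 and plots with matplotlib 3.10.9. Distances are gaps in bp between the nearest ends. Shared regions of both lists were merged where they touched or overlapped, and a union region belongs to the 1 Mb window of its midpoint. Windows leave out chromosomes Y and M. On 9 simulated or brute-force cases, these functions returned the known answer each time. The comparison and its measures were chosen with earlier results of these data known, and the classes of windows by density were chosen after the window counts were seen. Regions named are the 5 widest and the 3 most isolated of each unshared class, the 3 longest runs, and the 3 windows at each end by number and share, leaving out chromosome M. Analyses of genes, fixed gene lists and enzyme sites were not run, for want of an mm9 annotation.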

Additional observations from a re-analysis of the deposited data

Results flagged for a closer look

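TSA-only and control-only regions were unequal in opposite directions at the 2 ages. The log2 ratio of TSA-only to control-only regions was -0.32 in old and 1.58 in young mice. The young TSA list held 80122 regions against 43335 for the young control, and the old lists 87416 against 97139. At either age a treatment effect on this ratio and a difference in depth cannot be told apart. With 1 library per group, this difference between the ages was not tested.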

How the results depend on the processing

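Of 89 values for 15 measures under alternative settings, 34 stayed inside the 95% interval of the value reported and 55 lay outside it. TSA-only regions stayed the smaller unshared class in each alternative that counted them, at 45.1% with a reciprocal overlap of 50% and 41.9% among regions of 1900 bp or wider. The gap in TSA-only share between windows with 20 or more and fewer than 10 shared regions was 6.46 points as reported and 6.05 to 6.35 points in 8 alternatives. These limits stayed fixed in each alternative. With windows of 0.5 or 2 Mb, or only regions of 1900 bp or wider, sparse and dense windows therefore had other densities. In the following, each pair gives TSA only, then control only. With the reciprocal overlap, regions of 1900 bp or wider were 30.3 and 34.3%, those within 10 kb of the other library 67.9 and 60.5%, those within 50 kb of their class 85.1 and 89.2%, and those called in young TSA 35.1 and 28.7%. The dense windows then gave 47.2%, and 81.3% of gained and 79.7% of lost regions fell on unshared regions. When regions up to 500 bp apart also counted as shared, the values were 61.9 and 54.7% within 10 kb, 80.8 and 86.4% within 50 kb, 31.1 and 24.8% in young TSA, and 68.4% of gained and 69.3% of lost regions. Among regions of 1900 bp or wider they were 45.2 and 37.7%, 62.4 and 69.7%, 53.9 and 44.4%, then 51.3% of gained and 61.7% of lost regions, with 39.3% in sparse and 45.5% in dense windows. On autosomes they were 64.7 and 57.6% within 10 kb, 83.1 and 88.0% within 50 kb, and 25.8% of control-only regions in young TSA. With regions closer than 1 kb merged, widths of 1900 bp or more were 29.7 and 33.7%, then 61.7 and 54.1% within 10 kb, 79.96 and 85.5% within 50 kb, 68.2% of gained and 68.1% of lost regions. Within 10 kb of their own class lay 34.3 and 38.6%, and within 100 kb 94.5 and 97.1%. Windows of 0.5 Mb gave 42.0% in sparse and 48.3% in dense windows, with TSA only ahead in 28.96% of windows. Windows of 2 Mb gave 39.5%, 45.5% and 16.5%. With 40 or more regions per window TSA only led in 24.6%, against 21.6% as reported. Fewer regions or larger targets move these shares by construction, and other causes were not tested. The width measures have no value among regions of 1900 bp or wider, and the X chromosome none on autosomes. No paired analysis was possible because each group holds 1 library. Leaving out a library leaves no comparison, and unknown depth limits every absence of a call.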

Other observations

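The TSA-only share of a 1 Mb window in the old mice had a Pearson correlation of 0.14 with that of the same window in the young mice (Spearman 0.16), over 1710 windows with 20 or more regions at both ages. The ages share no library, and the windows share sequence and enzyme sites. Across the 19 autosomes the TSA-only share and the density of shared regions had a Pearson correlation of 0.45 (Spearman 0.41).

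Chromosome Y held 15 old TSA and 17 old control regions, which merged into 14 shared regions with 1 TSA-only and 2 control-only regions. The mitochondrial genome held 2 old TSA and 3 old control regions, 1 of them control only. It lies outside the nucleus and is no measure of nuclear chromatin.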
